A study of Mus musculus with 8 samples.

Results

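The 36 genes described here encode the Wnt ligands, the R-spondins, the secreted Wnt antagonists and 2 proteins of Wnt secretion, and were taken by symbol from the 33641 genes of the files. They comprised 19 Wnt ligands, 4 R-spondins, 5 Dickkopf genes (Dkk1 to Dkk4 and Dkkl1), 5 genes of the secreted Frizzled-related proteins (Sfrp1, Sfrp2, Sfrp4, Sfrp5 and Frzb), Wif1, and the secretion genes Porcn and Wls. The rule used their symbols and not their levels. RNA-seq was performed on tumor-associated endothelial cells (TECs), sorted by FACS as CD45-CD31+ cells from microdissected lung tumors 21 days after injection of Lewis Lung Carcinoma (LLC) cells, a mouse lung cancer line, into the left lung. There were 4 control and 4 endFoxf1+/- libraries, numbered 1 to 4 within each group in order of deposit, so that a number is a name only. The labels tie no library to a mouse, and for some of these values the study plots fewer libraries, with number 3 of each group absent from its own numbering. The labels do not tie that numbering to the libraries here, so whether it is the library 3 of this text is not known.

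The endFoxf1+/- mice were Pdgfb-iCreER;Foxf1 fl/+ animals on the C57Bl/6 background, in which tamoxifen, given by gavage to young adults, makes Cre delete exon 1 of the single floxed Foxf1 allele while the other allele stays intact. The Pdgfb promoter drives Cre in endothelial cells, and the injected LLC cells carry no Cre. The study describes its controls as tamoxifen-treated littermates carrying only Foxf1 fl/+ or only the Pdgfb-Cre transgene, and which of these each control library came from was not given in the labels. Both groups carried the same mCherry-labelled LLC tumor. FOXF1 is a forkhead transcription factor of lung endothelium and mesenchyme.

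Wnt ligands are lipid-modified secreted proteins that bind Frizzled receptors and the co-receptors LRP5 and LRP6, which stabilizes beta-catenin or starts beta-catenin-independent signaling. PORCN, an acyltransferase of the endoplasmic reticulum, adds the lipid, and WLS carries the modified ligand to the cell surface. R-spondins bind LGR receptors and the ubiquitin ligases ZNRF3 and RNF43 and so keep Frizzled receptors on the membrane, and in mouse vessels Rspo3 is known as a product of endothelial cells. Most Dickkopf proteins, DKK1 among them, act at LRP5 and LRP6, whereas the secreted Frizzled-related proteins and WIF1 bind the ligands themselves.

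TPM values, which the authors scaled to transcript length and to a fixed library total, were available for each library, so levels of different genes may be compared, while read depth is unknown. Library 3 of the endFoxf1+/- group stood apart. Its median correlation with the other libraries on the log2(TPM + 1) scale was 0.902, that of endFoxf1+/- library 4 was 0.952 and those of the other 6 were 0.980 to 0.985. The summed TPM of 20 endothelial markers was 13301 to 17038 in the controls, 15403 and 16130 in endFoxf1+/- libraries 1 and 2, 8156 in library 4 and 797 in library 3, and none of the markers was at 0 in any library. The endothelial label was thus poorly borne out by the markers of library 3. The summed TPM of 12 myeloid markers was 8498 there (controls, 1457 to 5112), with all 12 above every control. That of 12 fibroblast markers was 1435 (controls, 56.8 to 135). Of the myeloid markers, 8, 9 and 4 were above every control in endFoxf1+/- libraries 1, 2 and 4. Epithelial transcripts were present in every library. The summed TPM of 12 epithelial markers was 7172 to 32934 in the controls and 11063, 2706, 1656 and 27068 in endFoxf1+/- libraries 1 to 4. TECs therefore names the sorted cells here, and no level can be assigned to endothelial cells alone. In sorted bulk RNA, fewer cells of a type and less RNA per cell cannot be told apart. Foxf1 was at 213, 285, 296 and 331 TPM in the controls and at 177, 203, 14.04 and 105 TPM in the endFoxf1+/- libraries, each below every control (p = 0.0286 by a two-sided exact permutation of the libraries, the lowest value possible with 4 against 4). The geometric mean TPM of the 20 endothelial markers was 24.8 in endFoxf1+/- library 3 and 268 in library 4 (controls, 387 to 491). The low Foxf1 of library 3 is thus not a separate check of its genotype label.

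The first question was which of these genes TECs expressed at all. Most Wnt ligands were near or at the floor of the measurement. Of the 36 genes, 34 were above 0 in at least 1 library and 16 in all 8. A TPM of at least 1 was reached in at least 4 of 8 libraries by 10 genes, 27.8%, against 44.5% of all genes in the files. These 10 were the ligands Wnt2b and Wnt4, the R-spondins Rspo1 and Rspo3, the antagonists Dkk1, Dkk2, Dkk3 and Sfrp1, and both secretion genes, Porcn and Wls. By family, 2 of 19 Wnt ligands, 2 of 4 R-spondins, 3 of 5 Dickkopf genes and 1 of 5 secreted Frizzled-related genes passed this level. Each library had between 7 and 11 of the 36 genes at a TPM of at least 1, with the 7 in endFoxf1+/- library 3.

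**Figure D1:**
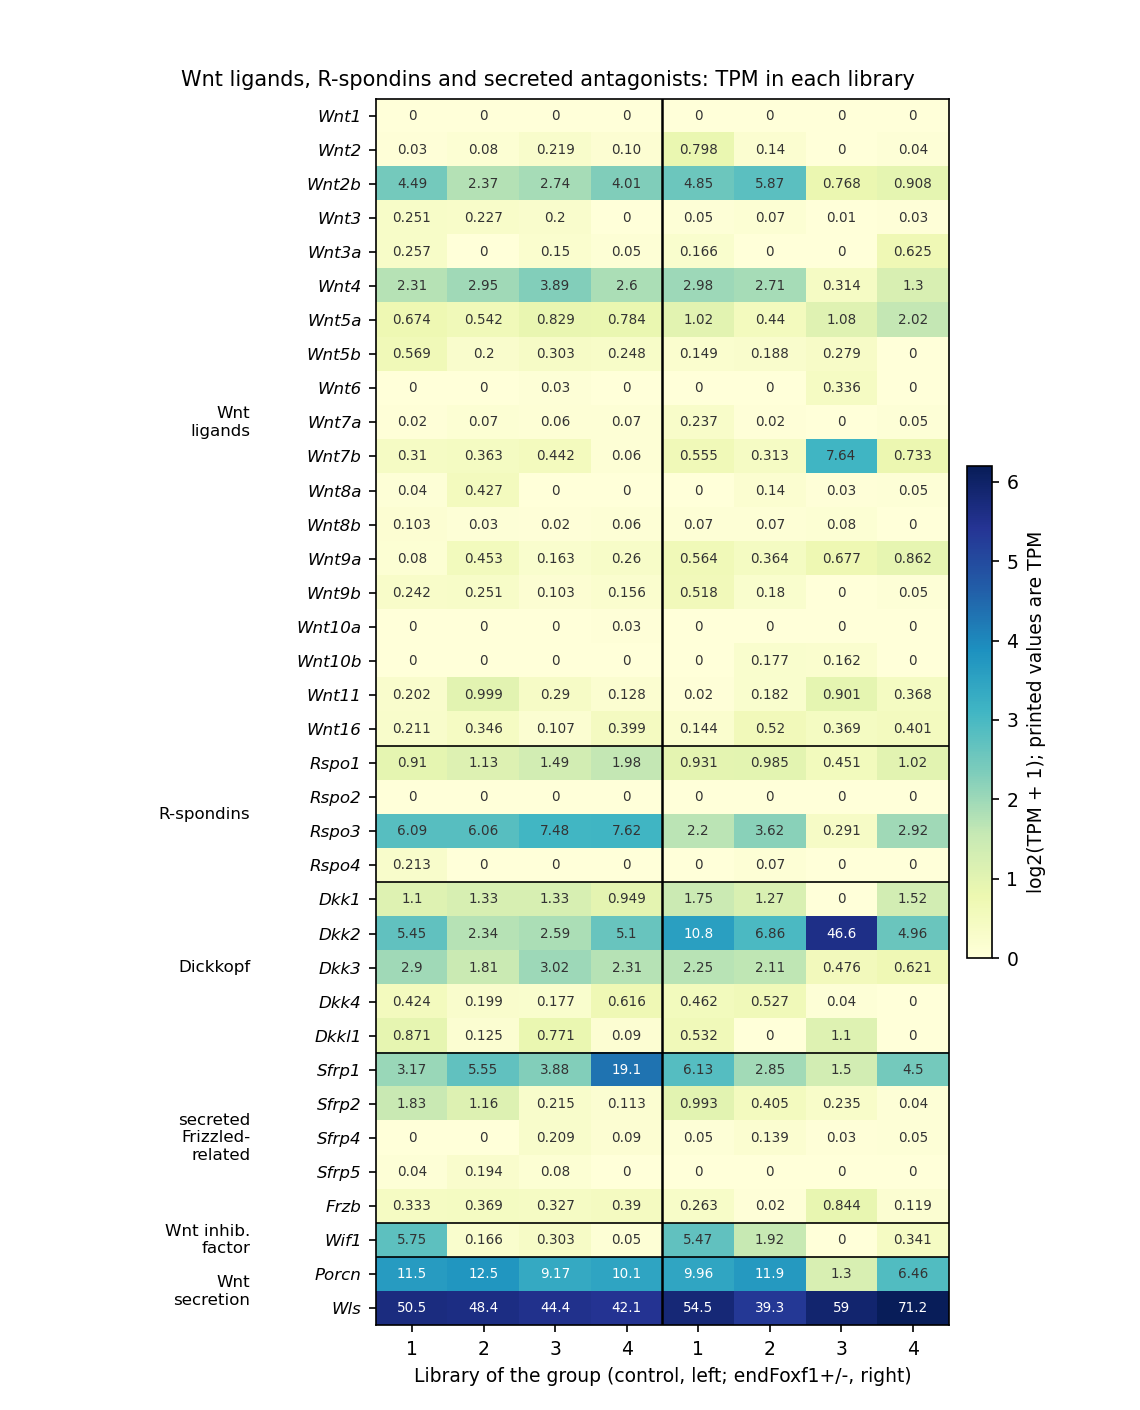
TPM of the 36 genes (rows, by family) in the 4 control (left) and 4 endFoxf1+/- libraries (right); color is log2(TPM + 1) and the printed numbers are TPM. Most rows are pale: Wls has the highest value in every library, Rspo3 is darker in the 4 controls than in the 4 endFoxf1+/- libraries, and endFoxf1+/- library 3 has 46.6 TPM of Dkk2 and 7.64 TPM of Wnt7b.

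In the control libraries, the order of levels began with the secretion gene Wls, at 46.3 ± 3.80 TPM (mean ± SD, n = 4), and its lowest control library lay above the highest of any other member. Porcn (10.8 ± 1.47 TPM), the antagonist Sfrp1 (7.93 ± 7.54 TPM) and Rspo3 (6.81 ± 0.854 TPM) came next, and each overlapped its neighbour in the order. The place of Sfrp1 rested on control library 4, at 19.1 TPM, whereas the other controls were at 3.17 to 5.55 TPM, below every control value of Rspo3. The ranges of Rspo3 and of Dkk2 (3.87 ± 1.63 TPM) did not overlap. From Dkk2 downwards, Wnt2b (3.40 ± 1.01 TPM), Wnt4 (2.94 ± 0.688 TPM), Dkk3 (2.51 ± 0.563 TPM), Rspo1 (1.38 ± 0.467 TPM) and Dkk1 (1.18 ± 0.186 TPM) each overlapped the next. The ligand with the highest mean was therefore present at a lower level than the secretion machinery, Rspo3 and Sfrp1, although the ranges of Wnt2b and Sfrp1 overlapped.

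In the comparison of endFoxf1+/- with control TECs, Rspo3 was the 1 gene of the 10 whose groups did not overlap, and its level was lower in endFoxf1+/- TECs. Dkk2 was higher in 3 of 4 endFoxf1+/- libraries than in any control. The other 8 genes overlapped between the groups, and in 7 of the 8 endFoxf1+/- library 3 held the lowest value of all libraries. No gene of the 36, and no gene of the 14964 tested, had an adjusted p under 0.05 (limma on log2(TPM + 1), Benjamini-Hochberg; smallest adjusted p 0.305), while 836 genes (5.59%) had an unadjusted p under 0.05. Of the 10 members tested, 2 had an unadjusted p under 0.05, Rspo3 in the lower direction (2.77% of all genes) and Dkk2 in the higher (2.82%). Complete separation of the groups with endFoxf1+/- below control was found for 2.31% of all genes tested, and with endFoxf1+/- above control for 2.73%, against 1 and 0 of the 10 members.

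Rspo3 (ENSMUSG00000019880.10) is on the minus strand of chromosome 10 of GRCm38, from 29452416 to 29535867. It was at 6.09, 6.06, 7.48 and 7.62 TPM in the controls and at 2.20, 3.62, 0.291 and 2.92 TPM in endFoxf1+/- libraries 1 to 4. Every endFoxf1+/- library was below every control library, and the lowest control was well above the highest endFoxf1+/- library. The mean was 6.81 ± 0.854 TPM in control and 2.26 ± 1.44 TPM in endFoxf1+/- TECs (mean ± SD, n = 4 each), a 3.02-fold lower mean.

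On the log2(TPM + 1) scale, the Rspo3 difference was −1.40 (SE 0.40, 95% interval −2.30 to −0.51). The exact permutation test gave p = 0.0286, and limma gave an unadjusted p of 0.0061 and an adjusted p of 0.790 over all genes. The value did not rest on the library with few endothelial transcripts: without endFoxf1+/- library 3 the difference was −1.01 (exact permutation p = 0.0571, the smallest that 4 against 3 can give) and the mean of the other 3 was 2.91 ± 0.712 TPM, 2.34-fold below control. Without libraries 3 and 4 it was −1.02. With array weights, which limma estimates from the scatter of each library, it was −1.13 with an adjusted p of 0.0335, where 0.989% of all genes were called. Separation in this direction was found for 2.6% of genes without library 3 and for 4.19% without both. The annotation places an exon of Gm48159 opposite an exon of Rspo3, and whether reads were counted by strand was not given in the sources used here.

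**Figure D2:**
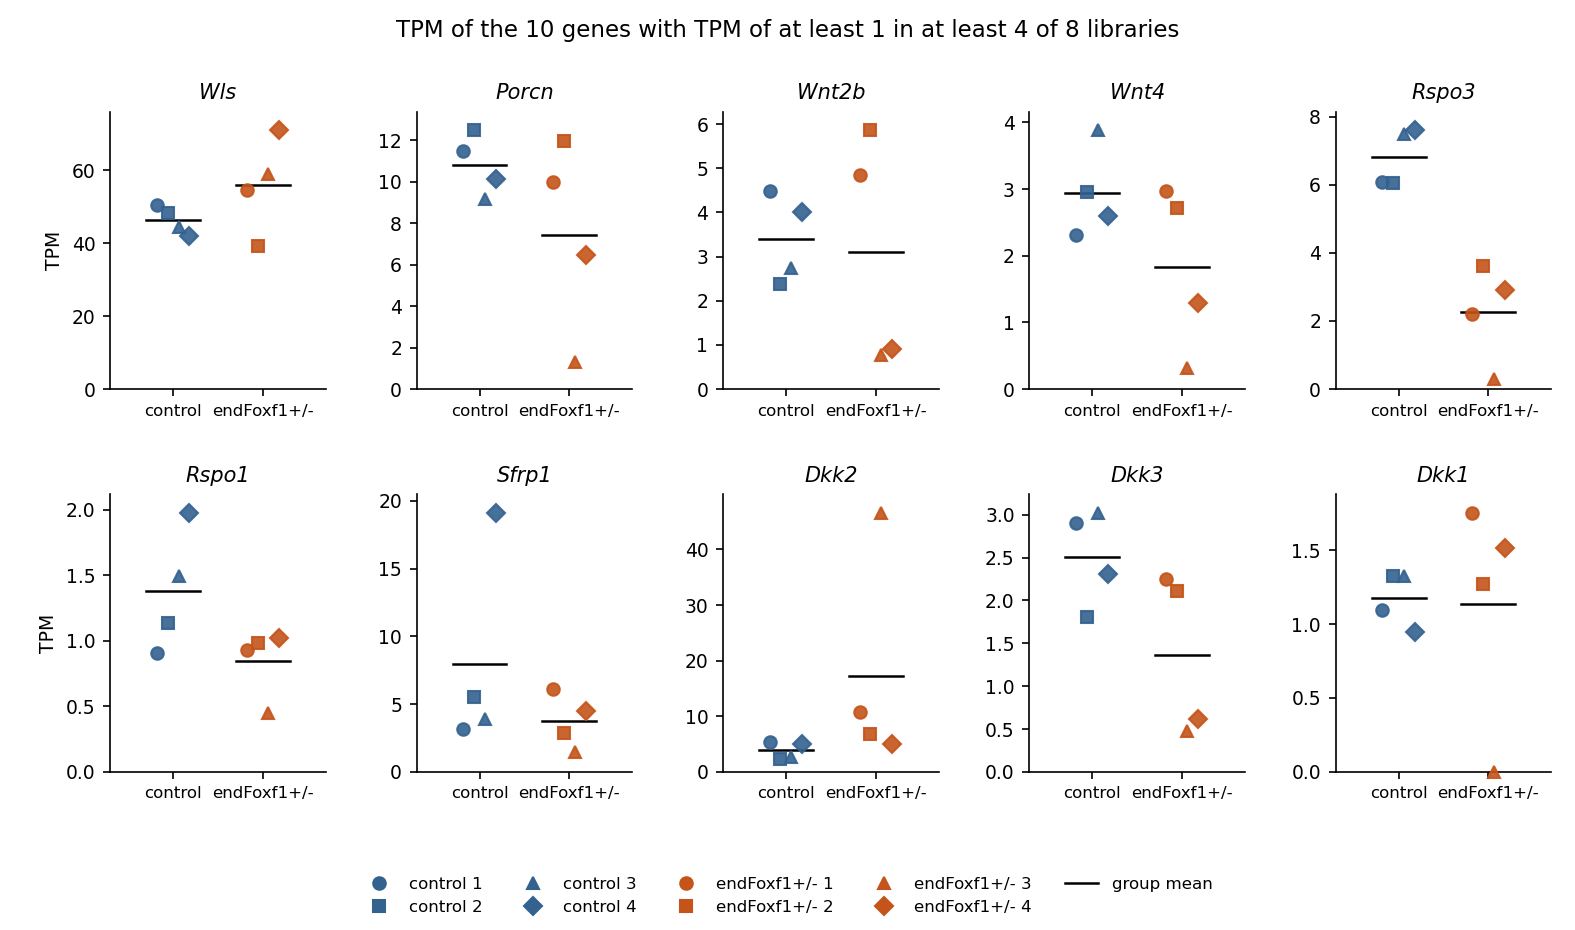
TPM (y axes, each from 0) of the 10 genes that reached the expression level, in control and endFoxf1+/- libraries; each point is 1 library, its shape marks the library number, and the line is the group mean. Rspo3 is the gene whose groups do not overlap; in most other panels endFoxf1+/- library 3 lies at an end of its group.

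Rspo3 was also compared with the endothelial markers of its own library, because these markers varied. As a percent of the geometric mean TPM of the 20 endothelial markers, with no pseudocount, Rspo3 was 1.25, 1.28, 1.93 and 1.55% in the controls and 0.462, 0.745, 1.17 and 1.09% in endFoxf1+/- libraries 1 to 4. All 4 endFoxf1+/- values were again below all 4 controls (means 1.51 ± 0.316% and 0.867 ± 0.327%, exact permutation p = 0.0286), and the gap narrowed, mainly through libraries 3 and 4. On this measure 0.214% of all genes tested lay below every control in every endFoxf1+/- library, and 1.81% without library 3. The marker level of library 3 was 24.8 TPM (controls, 387 to 491), which raises most genes there, and 9.76% of all genes tested lay above every control. The 0.214% is shaped by that low marker level and does not show how rare such a separation is. On the log2(TPM + 1) scale, the difference relative to the mean of the same markers was −0.22 (exact permutation p = 0.829), and −0.80 without library 3. The pseudocount of 1 compresses a gene at 0.291 TPM far more than the endothelial markers, so the 2 relative measures differ most in library 3. On the log2 scale library 3 lay above every control and library 4 just above the lowest control, so the groups overlapped with or without library 3. Without a pseudocount, libraries 3 and 4 (1.17 and 1.09%) lay close under control library 1 (1.25%).

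Some markers of vessel-associated cells were lower in the same libraries. The summed TPM of 12 pericyte and smooth muscle markers was 131 to 153 in the controls and 129, 96.0, 45.1 and 58.2 in endFoxf1+/- libraries 1 to 4, so that library 1 lay just under the lowest control while its Rspo3 was the second lowest. Of the 12 genes, 10 had a lower mean in endFoxf1+/- TECs (68% of all genes tested were lower) and 3 were below every control (2.31%). The markers did not move as 1 group: Tagln, of smooth muscle, was at 44.3 and 39.7 TPM in endFoxf1+/- libraries 1 and 2, above every control. The 3 genes below every control included Rgs5, a pericyte marker (18.9, 17.9, 15.1 and 10.7 TPM in control and 3.71, 3.73, 0.602 and 6.66 TPM in endFoxf1+/- libraries). The summed TPM of 10 erythroid and platelet markers was likewise lower, at 1008 to 2037 against 415 to 988. Relative to the mean log2(TPM + 1) of these lists, the Rspo3 difference was −0.64 (exact permutation p = 0.114) for the pericyte and smooth muscle markers and −0.38 (exact permutation p = 0.286) for the erythroid and platelet markers. Without library 3 these differences were −0.47 and −0.25. No marker of either list was at 0 in all libraries, and the part of these cells in the Rspo3 difference was not tested.

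**Figure D3:**
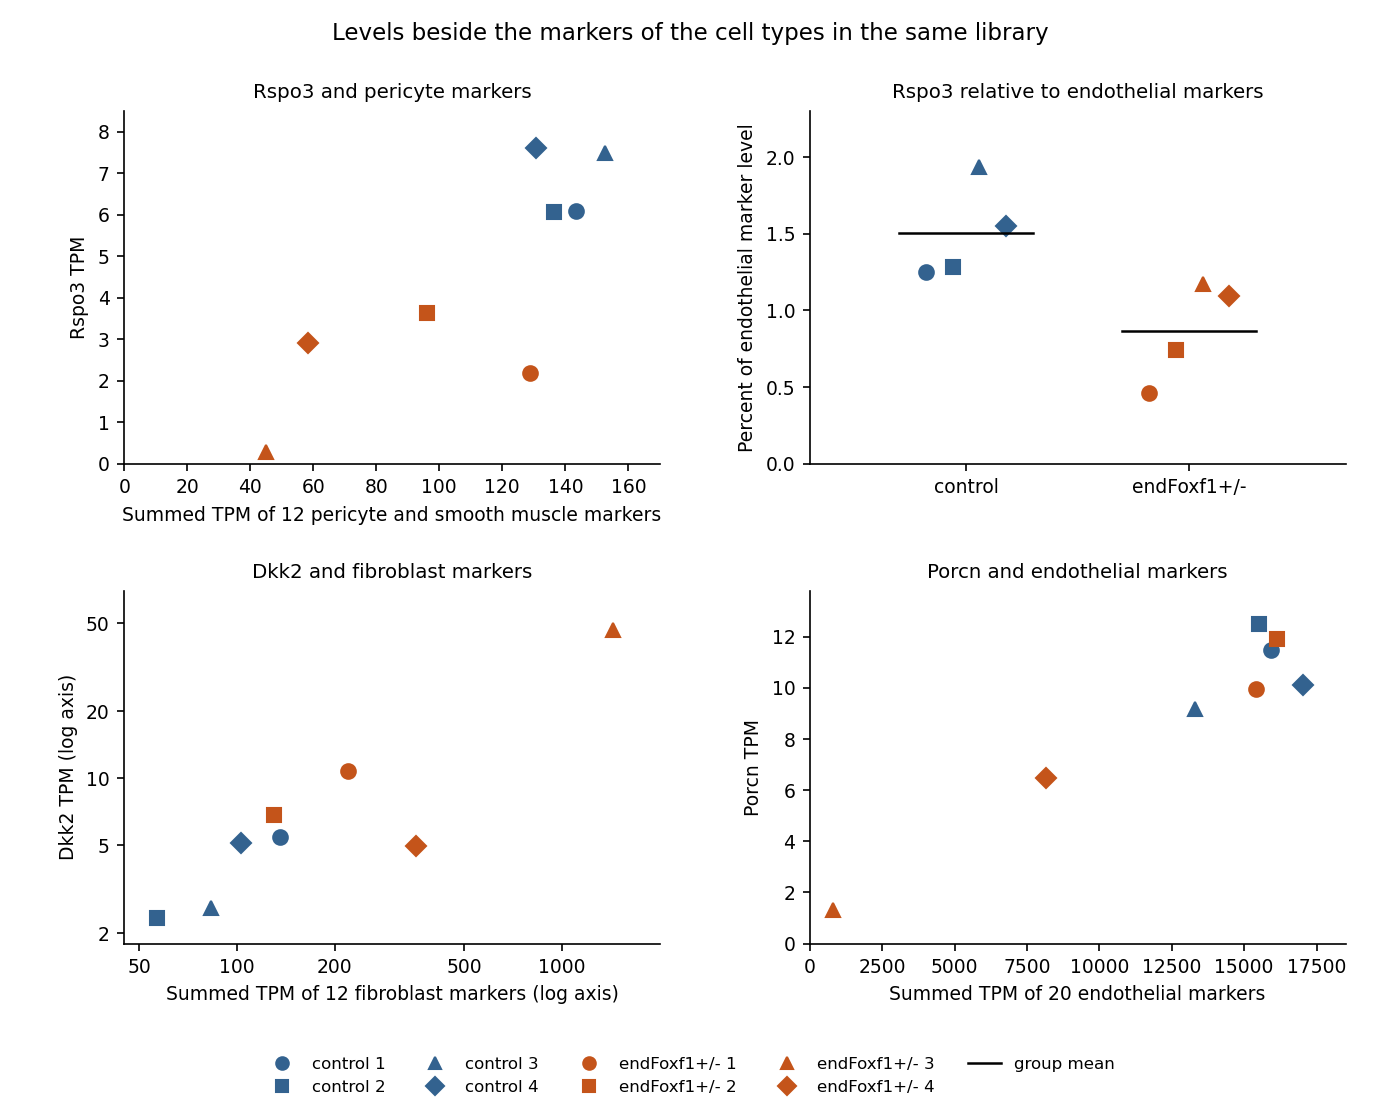
Top left, Rspo3 TPM against the summed TPM of 12 pericyte and smooth muscle markers; top right, Rspo3 as a percent of the geometric mean TPM of 20 endothelial markers, with group means as lines; bottom left, Dkk2 TPM against the summed TPM of 12 fibroblast markers, both on log axes; bottom right, Porcn TPM against the summed TPM of the endothelial markers. Each point is 1 library, and endFoxf1+/- library 3 has the lowest Rspo3 and Porcn and the highest Dkk2.

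Rspo1, the other R-spondin above the expression level, was at 0.910, 1.13, 1.49 and 1.98 TPM in control and 0.931, 0.985, 0.451 and 1.02 TPM in endFoxf1+/- TECs. The groups overlapped, with 1 endFoxf1+/- library (library 3) below all controls. The difference was −0.36 (SE 0.26, 95% interval −0.95 to 0.24, adjusted p by limma 0.790, exact permutation p = 0.114). Rspo2 was listed at 0 in every library, and Rspo4 reached 0.213 TPM in control library 1 and 0.0659 TPM in endFoxf1+/- library 2 and was at 0 elsewhere.

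The summed TPM of the 4 R-spondins was 7.19 to 9.60 in the controls and 0.741 to 4.67 in endFoxf1+/- libraries, and Rspo3 supplied 79.4 to 84.4% of it in the controls, 70.3, 77.5 and 74.1% in endFoxf1+/- libraries 1, 2 and 4, and 39.2% in library 3. The sum therefore followed Rspo3. The receptors of R-spondins were examined from a list of Wnt receptors. Lgr4 was at 2.59 ± 0.266 and 4.18 ± 1.60 TPM in control and endFoxf1+/- TECs, Lgr5 at 2.17 ± 0.621 and 2.46 ± 1.17 TPM, and Lgr6 at 0.629 ± 0.182 and 0.747 ± 0.0423 TPM (mean ± SD, n = 4 each). Of the ubiquitin ligases, Znrf3 was at 8.26 ± 0.826 and 6.62 ± 1.25 TPM and Rnf43 at 0.697 ± 0.298 and 1.22 ± 1.43 TPM. The groups overlapped for each of these 5 genes.

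Wnt2b and Wnt4, the 2 ligands above the expression level, overlapped between the groups. Wnt4, a ligand known for roles in kidney and gonad development, was at 2.31, 2.95, 3.89 and 2.60 TPM in control and 2.98, 2.71, 0.314 and 1.30 TPM in endFoxf1+/- TECs. Libraries 1 and 2 lay within the control range and libraries 3 and 4 below it. The difference was −0.59 (SE 0.38, 95% interval −1.45 to 0.26, adjusted p by limma 0.790, exact permutation p = 0.257) and shrank to −0.27 without library 3 and to −0.02 without libraries 3 and 4.

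Wnt2b, a canonical ligand required with Wnt2 for lung specification in the embryo, was at 4.49, 2.37, 2.74 and 4.01 TPM in control and 4.85, 5.87, 0.768 and 0.908 TPM in endFoxf1+/- TECs. Libraries 1 and 2 were above every control and libraries 3 and 4 below every control, so that the group means of 3.40 ± 1.01 and 3.10 ± 2.64 TPM hid a split. The difference was −0.34 (SE 0.49, 95% interval −1.43 to 0.76, adjusted p by limma 0.852, exact permutation p = 0.571), −0.02 without library 3 and 0.56 without both libraries. Endothelial markers were also lowest in libraries 3 and 4 (797 and 8156 TPM), and their part in the split was not tested.

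Together, Wnt2b and Wnt4 made up 57.1 to 73.7% of the summed TPM of the 19 ligands in the controls and 64.6 and 75.4% in endFoxf1+/- libraries 1 and 2, but 8.57% in library 3 and 29.7% in library 4. The sum itself was 8.96 to 9.80 TPM in control and 12.1, 11.4, 12.6 and 7.42 TPM in endFoxf1+/- libraries, without a common direction. In library 3, 60.4% of it came from Wnt7b, a ligand of lung and brain vessel development. Wnt7b was at 0.310, 0.363, 0.442 and 0.0639 TPM in control and 0.555, 0.313, 7.64 and 0.733 TPM in endFoxf1+/- TECs (exact permutation p = 0.0857). The annotation places an exon of AU022754 on the other strand over an exon of Wnt7b.

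**Figure D4:**
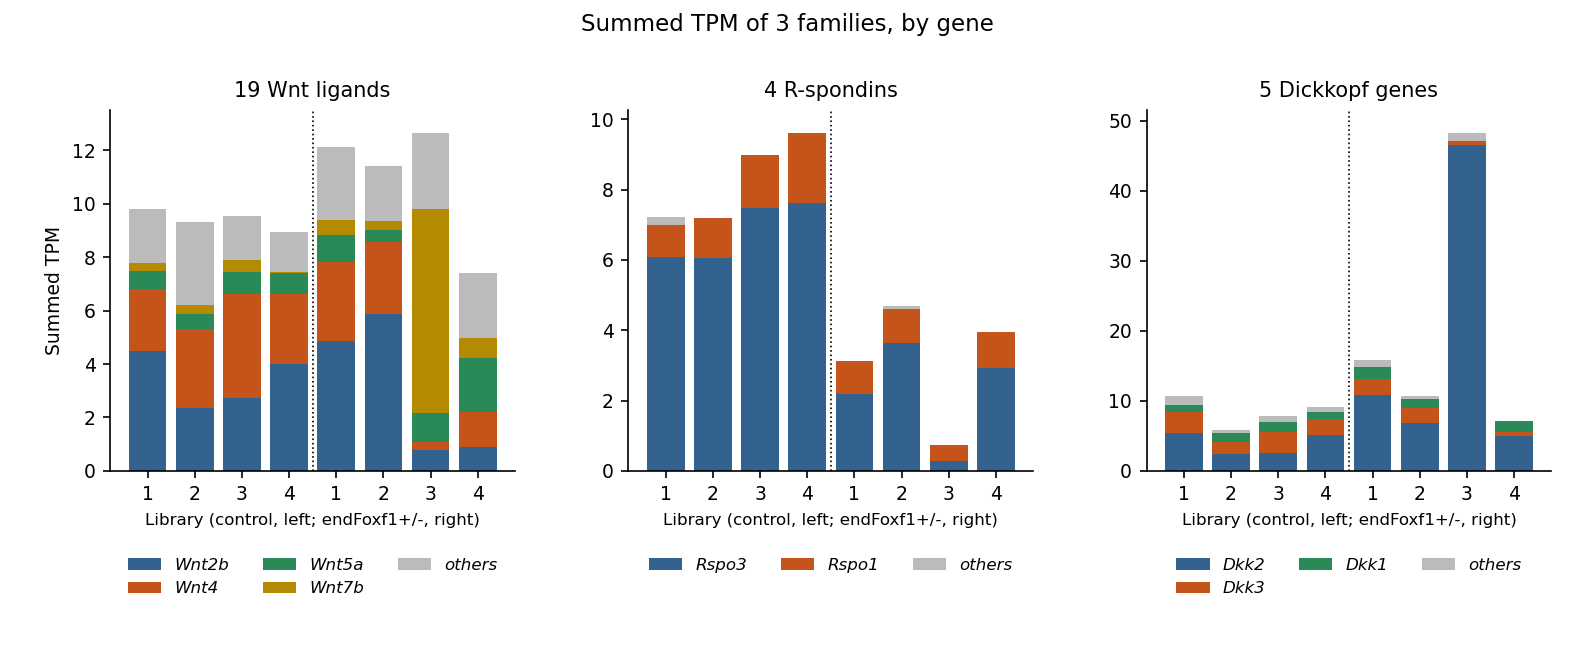
Stacked TPM of the Wnt ligands, R-spondins and Dickkopf genes in each library (control left of the dotted line, endFoxf1+/- right), with the leading genes colored and the others of the family in grey. The R-spondin bars, mostly Rspo3, are shorter in all 4 endFoxf1+/- libraries (0.741 to 4.67 TPM) than in the controls (7.19 to 9.60 TPM), and in endFoxf1+/- library 3 the ligand bar is mostly Wnt7b and the Dickkopf bar mostly Dkk2.

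Wnt5a, the prototype of beta-catenin-independent ligands, came next among the ligands, at 0.674, 0.542, 0.829 and 0.784 TPM in control and 1.02, 0.440, 1.08 and 2.02 TPM in endFoxf1+/- TECs. It passed 1 TPM in 3 endFoxf1+/- libraries and in no control, and the groups overlapped (exact permutation p = 0.286). An exon of Gm2670 lies opposite it. Wnt9a was at 0.0840, 0.453, 0.163 and 0.260 TPM in control and 0.564, 0.364, 0.677 and 0.862 TPM in endFoxf1+/- TECs, and had the lowest exact permutation p of the genes below the expression level (p = 0.0571). Both groups of Wnt9a stayed under 1 TPM.

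The remaining 14 ligands stayed under 1 TPM in every library. The highest control and endFoxf1+/- libraries were at 0.999 and 0.901 TPM for Wnt11, 0.399 and 0.520 for Wnt16, 0.219 and 0.798 for Wnt2, 0.569 and 0.279 for Wnt5b, and 0.257 and 0.625 for Wnt3a. Wnt2, which acts with Wnt2b in the embryonic lung, was below Wnt2b in every library. The corresponding values were 0.251 and 0.0742 TPM for Wnt3, 0.427 and 0.140 for Wnt8a, 0.251 and 0.518 for Wnt9b, 0.103 and 0.0767 for Wnt8b, and 0.0733 and 0.237 for Wnt7a. Wnt6 reached 0.0345 and 0.336 TPM, Wnt10a 0.0299 TPM in 1 control library only and Wnt10b 0.177 TPM in endFoxf1+/- libraries only. Wnt1 was listed at 0 in every library. None of the 26 genes below the expression level had groups that did not overlap, and none of the 19 of them with an exact test had p under 0.05. Of the 9075 genes of the files that were below this level and above 0 in some library, 1.12% lay below and 0.639% above every control in every endFoxf1+/- library. Without library 3, 2 of the 24 such members lay below every control, Wnt5b (0 to 0.188 TPM, against a lowest control of 0.2001 TPM) and the secreted Frizzled-related gene Frzb (0.0241 to 0.263 TPM, against 0.327 TPM), each with an exact permutation p of 0.0571, the smallest that 4 against 3 can give. None lay above, and the shares of the 9075 genes were then 1.48% below and 1.82% above. In library 3 itself, Wnt5b was at 0.279 TPM and Frzb at 0.844 TPM.

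Among the Dickkopf genes, the secreted Frizzled-related genes and Wif1, Dkk2 showed the largest difference. Dkk2, which binds LRP5 and LRP6, was at 5.45, 2.34, 2.59 and 5.10 TPM in control and 10.8, 6.86, 46.6 and 4.96 TPM in endFoxf1+/- TECs. Libraries 1, 2 and 3 were above every control, and library 4 lay within the control range. The difference was 1.45 (SE 0.60, 95% interval 0.09 to 2.81, unadjusted p by limma 0.0386, adjusted p 0.790, exact permutation p = 0.0857). Without library 3, which alone held 46.6 TPM, it was 0.82 and the mean of the other 3 was 7.54 ± 2.99 TPM, 1.95-fold the control mean of 3.87 ± 1.63 TPM. Dkk2 supplied 32.9 to 56.3% of the summed Dickkopf TPM in the controls and 63.7 to 96.7% in endFoxf1+/- libraries.

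Some fibroblast markers were high in the libraries with high Dkk2, and others were not. The summed TPM of the 12 fibroblast markers was 56.8 to 135 in control and 219, 130, 1435 and 356 in endFoxf1+/- TECs. Of the 12 genes, 9 were higher in mean and 4 above every control. Of all genes tested, 68% were lower in mean and 2.73% were above every control. In library 3 the list split, with 7 genes above and 5 below every control, and Col3a1, Dcn, Lum and Dpt supplied most of the sum. Col1a2 was at 2.39 TPM there and Inmt at 4.70 TPM. Col3a1, a fibrillar collagen, was at 43.4, 15.6, 16.8 and 30.2 TPM in control and 74.4, 44.4, 556 and 118 TPM in endFoxf1+/- TECs. Library 3 was highest for both Col3a1 and Dkk2. Library 4 had Dkk2 in the control range and fibroblast markers at 356 TPM. No fibroblast marker was at 0 in any library, and their part in the Dkk2 difference was not tested. As a percent of the endothelial marker level, Dkk2 was 0.496 to 1.12% in control and 1.41 to 188% in endFoxf1+/- TECs, without overlap (exact permutation p = 0.0286), and 9.76% of all genes tested lay above every control on this measure, or 9.88% without library 3.

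Dkk3, a divergent Dickkopf family member with no settled role at LRP5 and LRP6, was at 2.90, 1.81, 3.02 and 2.31 TPM in control and 2.25, 2.11, 0.476 and 0.621 TPM in endFoxf1+/- TECs. Libraries 1 and 2 were in the control range and libraries 3 and 4 below it, as for Wnt4. The difference was −0.65 (SE 0.34, 95% interval −1.41 to 0.12, adjusted p by limma 0.790, exact permutation p = 0.114), and −0.13 without libraries 3 and 4.

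Dkk1, the classical LRP5 and LRP6 antagonist, was at 1.10, 1.33, 1.33 and 0.949 TPM in control and 1.75, 1.27, 0 and 1.52 TPM in endFoxf1+/- TECs. Library 3 was listed at 0 and libraries 1 and 4 were above every control. The difference was −0.12 (SE 0.35, 95% interval −0.91 to 0.67, adjusted p by limma 0.925, exact permutation p = 0.943) and turned to 0.21 without library 3. Dkk4 stayed at or below 0.616 TPM in control and 0.527 TPM in endFoxf1+/- TECs, and Dkkl1, a gene known from testis, reached 0.871 TPM in control and 1.10 TPM in endFoxf1+/- library 3.

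Sfrp1, which binds Wnt ligands outside the cell, was at 3.17, 5.55, 3.88 and 19.1 TPM in control and 6.13, 2.85, 1.50 and 4.50 TPM in endFoxf1+/- TECs. The groups overlapped, and control library 4 stood above all others. The difference was −0.71 (SE 0.53, 95% interval −1.90 to 0.49, adjusted p by limma 0.792, exact permutation p = 0.371), and −0.21 without control library 4. Sfrp2 was at 1.83, 1.16, 0.215 and 0.113 TPM in control and 0.993, 0.405, 0.235 and 0.0405 TPM in endFoxf1+/- TECs, with overlapping ranges (exact permutation p = 0.457), and an exon of Gm26771 lies opposite it. Frzb reached 0.390 and 0.844 TPM, Sfrp4 0.209 and 0.139 TPM, and Sfrp5 0.194 TPM in control and 0 in the endFoxf1+/- libraries.

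Wif1, an antagonist that binds Wnt ligands through its WIF domain, varied widely between libraries of the same group. It was at 5.75, 0.166, 0.303 and 0.0529 TPM in control and 5.47, 1.92, 0 and 0.341 TPM in endFoxf1+/- TECs. Control library 1 and endFoxf1+/- library 1 were the highest of their groups, and the difference lay within the spread (exact permutation p = 0.800).

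The secretion genes Porcn and Wls were the members with the highest control means, and they moved in different ways in library 3. Porcn was at 11.5, 12.5, 9.17 and 10.1 TPM in control and 9.96, 11.9, 1.30 and 6.46 TPM in endFoxf1+/- TECs. Libraries 1 and 2 lay within the control range and libraries 3 and 4 below it, where the endothelial markers were also lowest. The difference was −0.74 (SE 0.50, 95% interval −1.86 to 0.38, adjusted p by limma 0.790, exact permutation p = 0.257), −0.21 without library 3 and 0.02 without both.

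Wls was at 50.5, 48.4, 44.4 and 42.1 TPM in control and 54.5, 39.3, 59.0 and 71.2 TPM in endFoxf1+/- TECs. It was not low in library 3, and libraries 1, 3 and 4 were above every control while library 2 was below. The difference was 0.24 (SE 0.23, 95% interval −0.27 to 0.75, adjusted p by limma 0.801, exact permutation p = 0.257). It was 0.12 without endFoxf1+/- library 4 and 0.40 without endFoxf1+/- library 2. Since Wls kept its level in a library with 797 TPM of endothelial markers, its TPM there cannot be assigned to 1 cell type.

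**Figure D5:**
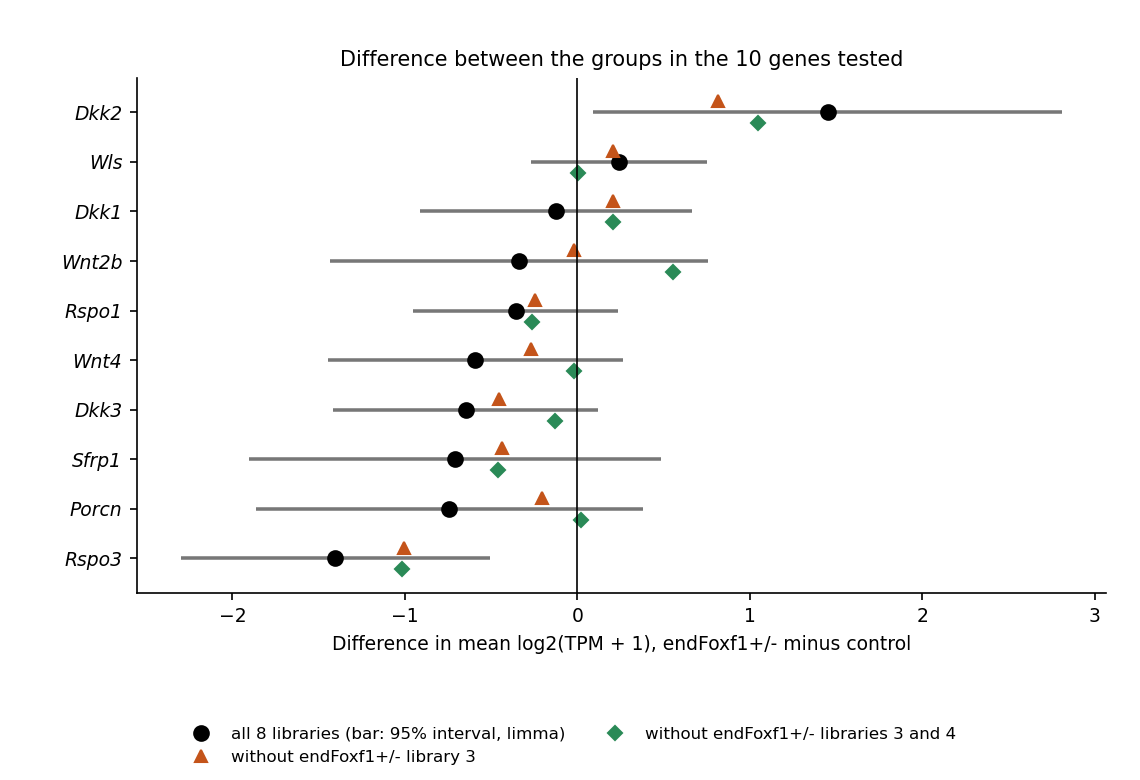
Difference in mean log2(TPM + 1), endFoxf1+/- minus control, for the 10 genes tested: black points with their 95% limma intervals for all 8 libraries, triangles without endFoxf1+/- library 3 and diamonds without libraries 3 and 4. The intervals of Rspo3 (−2.30 to −0.51) and Dkk2 (0.09 to 2.81) leave out 0, and the points of Wnt2b, Dkk1 and Porcn cross 0 when libraries are left out.

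Across the 10 members tested, 8 had a lower and 2 a higher mean log2 level in endFoxf1+/- TECs, with a median difference of −0.47. Of all genes tested, 68% were lower and the median was −0.17, a shift that scaling by the median ratio or quantile normalization brought to −0.02 or −0.05. Without library 3, 7 of 10 were lower with a median of −0.23, against 0.01 over all genes, and without libraries 3 and 4, 5 of 10 were lower. Rspo3, Dkk2 and Wls kept their direction under every alternative tried, in the case of Wls down to a difference of 0.0031.

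The other genes of the pathway were taken from 4 lists, 59 genes of which 45 passed the filter. None had an adjusted p under 0.05 by limma, and 2 had an unadjusted p under 0.05, Nkd2 and Apcdd1 (named after their values were seen, as was Ptk7), against 5.59% of all genes. Lower in mean were 5 of 7 Frizzled receptors, 9 of 12 co-receptors and other receptors, 3 of 7 other extracellular regulators and 14 of 19 genes of the destruction complex and transcription. Together these were 31 of 45 genes, beside 68% of all genes tested. The list medians were −0.42, −0.25, 0.12 and −0.24, beside −0.17 over all genes tested. Without library 3 they were −0.02, 0.00, 0.16 and −0.04, beside 0.01. The highest gene of each list was Fzd4 (91.9 ± 10.3 and 63.7 ± 39.7 TPM in control and endFoxf1+/- TECs), the Fzd4 partner Tspan12 (103 ± 11.3 and 69.3 ± 43.4 TPM), the IGF-binding protein gene Igfbp4 (104 ± 23.7 and 114 ± 28.5 TPM) and Ctnnb1, which encodes beta-catenin (489 ± 80.2 and 541 ± 209 TPM). The lower means of Fzd4 and Tspan12 rested on library 3, where they were at 6.68 and 4.86 TPM: without it, the log2(TPM + 1) difference went from −1.02 to −0.16 for Fzd4 and from −1.17 to −0.18 for Tspan12.

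In 4 of the 45 pathway genes tested the groups did not overlap. Nkd2, a Dishevelled-binding inhibitor, was at 23.6, 10.6, 12.7 and 14.5 TPM in control and 4.71, 7.29, 0.564 and 4.35 TPM in endFoxf1+/- TECs (difference −1.81, SE 0.50, adjusted p by limma 0.790; −1.31 without library 3). Nkd1, its relative, was at 143, 106, 114 and 168 TPM in control and 105, 98.4, 6.08 and 75.7 TPM in endFoxf1+/- TECs (−1.43, SE 0.77, adjusted p by limma 0.790), so that library 1 lay just under the lowest control. Without library 3, the Nkd1 difference was −0.50. Dvl2, a Dishevelled protein, was at 7.10 ± 1.06 and 4.77 ± 1.40 TPM (difference −0.52, SE 0.28, adjusted p by limma 0.790). Every endFoxf1+/- library was below every control, but the highest, library 3 at 5.85 TPM, lay just under the lowest control at 5.94 TPM. Lef1, a nuclear partner of beta-catenin, was at 2.17 ± 0.427 and 2.97 ± 0.211 TPM, with the lowest endFoxf1+/- library at 2.66 TPM and the highest control at 2.60 TPM. The 3 genes below and 1 above every control of 45 stand beside 2.31% and 2.73% of all genes. Among the 14 genes below the filter, the groups of Ror2, a receptor of beta-catenin-independent signaling, also did not overlap, at 0.0924 to 0.787 TPM in control and 0 to 0.0748 TPM in endFoxf1+/- TECs. Among the 9075 genes under this level and above 0 in some library, 1.12% were separated in this direction.

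Apcdd1, an extracellular Wnt antagonist, was at 2.15, 1.82, 1.84 and 3.07 TPM in control and 3.02, 3.65, 32.7 and 10.2 TPM in endFoxf1+/- TECs, and the groups overlapped through library 1. Its difference was 1.52 (SE 0.61, adjusted p by limma 0.790), and 0.90 without library 3. Like Dkk2 and Col3a1, it was highest in library 3. Ptk7, a co-receptor of beta-catenin-independent signaling, was at 1.58 ± 0.306 and 5.37 ± 4.03 TPM (difference 1.05, SE 0.48, adjusted p by limma 0.790). It was at 1.19 to 1.91 TPM in control and 2.52, 1.34, 8.13 and 9.47 TPM in endFoxf1+/- libraries 1 to 4. The groups overlapped through library 2, and the higher mean came mostly from libraries 3 and 4.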

How the data were processed

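RNA was isolated from FACS-sorted CD45-CD31+ cells, libraries were made with Nextera XT, and 1 table of TPM per library was deposited by the authors, with 33641 gene symbols and a total of 1000000 per library. The submitters' processing notes name TopHat, Cufflinks, Subread and DESeq2 and the build GRCm38 (mm10); which tool made the TPM, and strand use, were not given in the sources used here. Counts were not used here, so read depth is unknown and the number of libraries sets the precision; the study's test on counts was replaced by limma.

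Groups followed the genotype label. The 14964 genes that reached 1 TPM in 4 or more of the 8 libraries were fitted with limma 3.58.1 (R 4.3.3) on log2(TPM + 1), with a mean-variance trend and Benjamini-Hochberg adjustment over all genes; fold changes on this scale understate those of low genes. Exact two-sided permutation tests over the 70 assignments of libraries (scipy 1.17.1) were run for 29 members. The labels give no animal or litter, and p-values measure the spread between these libraries. Every member was named: those above the filter with all values, those at 1 TPM or more in 1 to 3 libraries with the libraries concerned, the rest by their highest values; of the pathway lists, the highest gene and genes whose groups did not overlap. All 36 symbols were found in GENCODE vM21 (GRCm38), the source of positions. The members, lists and alternatives were chosen with earlier results of these data known, and Wnt4, Sfrp1 and Sfrp2 are among the genes the study itself named from these libraries.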

Additional observations from a re-analysis of the deposited data

Results flagged for a closer look

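In all, 50 groups of 4 libraries were examined: the 15 members that reached 1 TPM in any library, Foxf1 and 9 marker sums, in both genotypes. Of these groups, 7 held 1 library whose gap to the nearest of the others exceeded Dixon's critical share of the range for 4 samples. For independent, normally distributed values, chance exceeds that share in about 1 group of 20. The groups here are on the TPM scale and reuse the same 8 libraries, so that rate is only a guide. Library 3 of the endFoxf1+/- group gave 3 of the 7: Dkk2 at 46.6 TPM (4.96 to 10.8 in the other 3), Wnt7b at 7.64 TPM (0.313 to 0.733) and Rspo1 at 0.451 TPM (0.931 to 1.02). The endothelial markers of that library summed to 797 TPM. In the controls, Sfrp1 was at 19.1 TPM in library 4 (3.17 to 5.55 in the others) and Wif1 at 5.75 TPM in library 1 (0.0529 to 0.303). Control library 3 had the highest summed epithelial markers (32934 TPM, against 7172 to 10769) and myeloid markers (5112 TPM, against 1457 to 1995). The myeloid sum was nearly all Lyz2, also a gene of alveolar epithelium, and the other 11 myeloid markers summed to 119, 172, 157 and 56.7 TPM in control libraries 1 to 4. Rspo3 was not among these in either group.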

How the results depend on the processing

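Of 204 recomputed differences of the 10 members, 30 changed sign and none of these belonged to Rspo3, Dkk2 or Wls. Over all genes, 148 were called with array weights (endFoxf1+/- libraries 3 and 4 weighted 0.0643 and 0.178) and 3 without those libraries, and leaving out single libraries gave 0 to 1 (1 without control library 1 or endFoxf1+/- library 3). A level of 0.1 TPM gave 23 expressed members and 5 TPM gave 4. Rspo3 was at −1.13 with array weights (adjusted p by limma 0.0335; 0.232 to 0.975 under the other alternatives), and at −0.22, −0.64 and −0.38 relative to endothelial, pericyte and smooth muscle, and erythroid and platelet markers (the last 2 chosen after seeing the data). Relative to these 3 lists, in the same order, Wnt2b was at 0.84, 0.43 and 0.68, Wnt4 at 0.59, 0.17 and 0.43, Rspo1 at 0.83, 0.41 and 0.67, Dkk1 at 1.06, 0.64 and 0.90, Dkk3 at 0.53, 0.12 and 0.37, Sfrp1 at 0.48, 0.057 and 0.32, and Porcn at 0.44, 0.0225 and 0.28; the markers were lower in endFoxf1+/- library 3 and the pseudocount limits how far low genes can follow. Relative to endothelial markers without library 3, Wnt2b was at 0.19, Dkk1 at 0.41 and Porcn at 0.00147. Array weights gave 0.50 for Wnt2b and 0.23 for Dkk1, leaving out libraries 3 and 4 gave 0.56, 0.20 and 0.0194 for Wnt2b, Dkk1 and Porcn, and leaving out 1 library at a time gave −0.28 to 0.21 for Dkk1 (0.21 without endFoxf1+/- library 3). The cause was not tested. Leaving out single libraries kept Rspo3 between −1.62 and −1.01. No paired analysis was possible because the labels carry no replicate numbers and the numbers used here only name libraries. With 4 libraries a group and no counts, the smallest difference that could be detected in genes near 1 TPM was not determined.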
